A study of Mus musculus with 8 samples.

Results

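Serotonin receptors were followed in the striatum, where the basal ganglia receive their cortical and thalamic input, through the 10 genes Htr1a, Htr1b, Htr1d, Htr1f, Htr2a, Htr2c, Htr3a, Htr4, Htr6 and Htr7. The genes were taken by name, and all 10 were found among the 31417 genes of the deposited count table. The RNA-seq libraries came from 8 mice aged 12 months, with 1 striatum per library. Of these, 4 mice were WT and 4 were Dclk3 knock out animals, by the label without the gene for doublecortin-like kinase 3, a kinase enriched in the striatum. The labels name no further allele and no treatment, with strain, sex and the deleted part of the gene not given in the sources used here. Between these genotypes the comparison asks how the transcripts of these receptors differ in the striatum of aged adults.

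Serotonin reaches the striatum along axons of neurons that lie in the raphe nuclei of the brainstem, so striatal cells make receptors while distant cells make the transmitter and its transporter. Most serotonin receptors are coupled to G proteins. The 5-HT1 receptors act through Gi/o proteins and lower cAMP, the 5-HT2 receptors act through Gq and phospholipase C, and the 5-HT4, 5-HT6 and 5-HT7 receptors act through Gs and raise cAMP, while the 5-HT3 receptor is a ligand-gated ion channel. In the striatum, 5-HT1B is known as a receptor of axon terminals, and 5-HT2C and 5-HT6 as receptors of spiny neurons, the projection neurons of this nucleus.

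Library totals ran from 24441242 to 37145559 counts, and levels are given as CPM, that is, counts scaled to a common library size with TMM factors that correct for composition. Dclk3 itself checked the labels, with 80.9 to 117 CPM in the WT libraries and 19.6 to 27.7 CPM in the knockout. Its log2 fold change of -2.06 (SE 0.14) had an adjusted p of 0.000773 in the edgeR fit over all genes. An exact two-sided permutation test of its level over 70 assignments of libraries gave p = 0.0286, the smallest value that 4 against 4 allows. The 10 medium spiny neuron markers summed to 5696 to 6810 CPM in wild-type and 5650 to 6592 CPM in knockout libraries. Adjacent tissue was unevenly present. Wild-type replicate 4 stood apart for choroid plexus, with 4435 CPM over 12 markers against 338 to 733 CPM in the other 7 libraries. Of the sums in those 7, 273 to 483 CPM came from the marker Enpp2 alone. Knockout replicate 4 was highest for the 10 thalamic markers at 583 CPM against 202 to 370 CPM elsewhere, and lowest for the 10 cortical glutamatergic markers at 825 CPM against 1011 to 1599 CPM. Results that rest on these libraries are given with and without them.

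Markers of serotonin neurons were close to absent, although 2 of 5 were abundant enough to be tested. The serotonin transporter gene Slc6a4 had between 0 and 4 counts per library, and Fev, a transcription factor gene that defines serotonin neurons, had 0 or 1. A count of 0 allows a level of up to 3 counts, which is 0.0822 CPM in the deepest and 0.123 CPM in the shallowest library and covers counting error only. Tph2, the neuronal enzyme of serotonin synthesis, stood at 0.912 CPM ± 0.131 in WT and 1.06 CPM ± 0.132 in knockout animals (SD, n = 4 each).

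To put the receptors in order, each level was divided by the length of annotated exon, since longer transcripts give more counts. Htr1b came first at 11.8 CPM per kb ± 1.85 (SD over the 8 libraries of both genotypes), and its range of 9.29 to 14.2 lay above that of every other receptor. Htr2c was next at 6.52 CPM per kb ± 1.23. Htr2a at 3.08 ± 0.494, Htr1d at 2.97 ± 0.314, Htr1a at 2.66 ± 0.269 and Htr7 at 2.29 ± 0.408 CPM per kb formed a middle group. Htr3a at 1.87 ± 0.333, Htr6 at 1.62 ± 0.400, Htr1f at 1.56 ± 0.220 and Htr4 at 1.08 ± 0.219 CPM per kb were lowest of the 10. The range of Htr2c, 4.603 to 7.95, lay above the 2.46 to 4.07 of Htr2a. From Htr2a down to Htr4, neighbours in the order overlapped in range. Within single libraries some of these neighbours kept their order per kilobase of exon, since Htr7 was above Htr3a, and Htr1f above Htr4, in 8 of 8 libraries. The order of Htr1f and Htr4 held for exon length only.

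**Figure D1:**
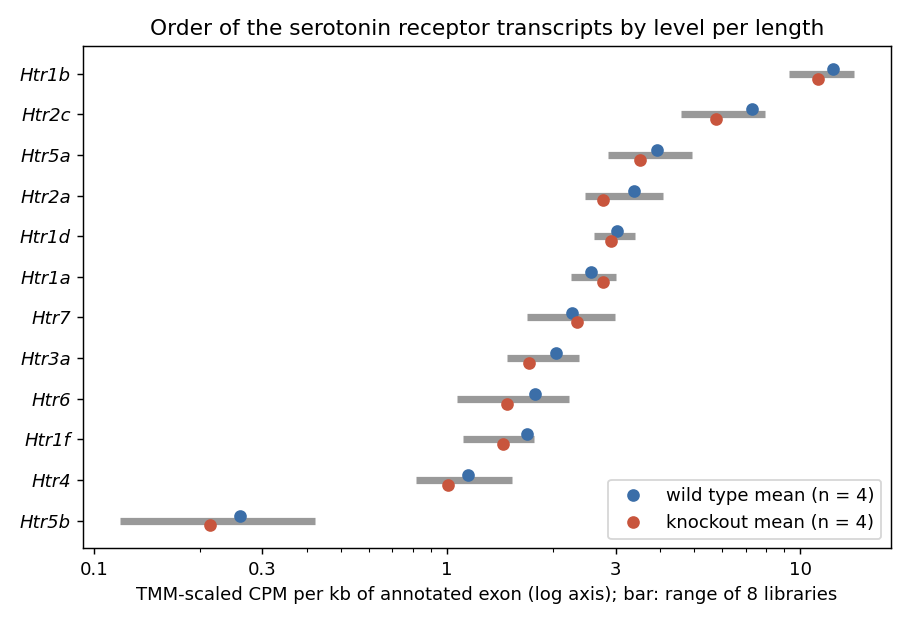
Level of each serotonin receptor transcript in CPM per kb of annotated exon on a log axis, with grey bars for the range over 8 libraries and points for the mean of 4 wild-type (blue) and 4 knockout (red) libraries. Htr1b lies apart at the top and Htr5b apart at the bottom, and neighbours from Htr2c through Htr5a to Htr4 overlap in range. Htr2b and Htr3b, at 0 to 3 counts, are not drawn.

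How far Htr1b stands above Htr2c depends on the length used. The exons annotated for Htr2c cover 9328 bases, retained-intron transcripts included, of which 1377 are the longest coding sequence. Those of Htr1b cover 4724 bases with 1158 coding. Per kilobase of exon the mean of Htr1b was 1.81 times that of Htr2c, and per kilobase of coding sequence it was 1.09 times, with Htr1b above Htr2c in 5 of 8 libraries. The low end changed too. Per kilobase of coding sequence Htr4 had a mean of 4.54 CPM, above Htr1f at 3.67, Htr6 at 2.88 and Htr3a at 2.66.

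The mouse receptor genes outside the 10 were read alongside. Htr5a, which encodes a Gi-coupled receptor, had 21.1 CPM ± 3.66 in WT and 18.9 CPM ± 2.73 in knockout animals (SD, n = 4 each) and came between Htr2c and Htr2a at 3.72 CPM per kb. Htr5b was low, at 0.230 to 0.818 CPM. Htr2b and the channel subunit gene Htr3b had 0 to 3 counts in every library, at or under the limit a count of 0 allows, and were not tested.

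Summed by coupling, the 5-HT1 genes held 47.0% ± 3.68 of the receptor signal per kilobase of exon in WT and 49.3% ± 3.51 in knockout animals (SD, n = 4 each). The 5-HT2 genes held 25.6% ± 1.75 and 23.0% ± 2.18, and the Gs-coupled genes 12.4% ± 2.10 and 13.0% ± 1.22. The 5-HT3 genes, almost wholly Htr3a, held 4.91% ± 0.787 and 4.64% ± 0.879. Htr5a and Htr5b were kept apart from the 5-HT1 genes, although Htr5a is Gi-coupled, and held 10.0% ± 1.88 and 10.1% ± 1.40. Each pair of means was closer than the sum of its SDs, which with 4 libraries per genotype cannot show that the proportions were alike. Differences in these shares were not tested. The shares were formed with exon length only and depend on that choice. Per kilobase of coding sequence the means of Htr1b and Htr2c were 48.1 and 44.2 CPM, against 11.8 and 6.52 CPM per kilobase of exon. The sum over all 14 genes was 40.9, 44.0, 40.6 and 41.4 CPM per kb for wild-type mice 1 to 4 against 35.0, 35.9, 37.9 and 39.9 CPM per kb for knockout mice 1 to 4. All knockout sums lay below all wild-type sums. Over the 10 genes alone the sums overlapped, at 36.2 to 40.2 and 31.3 to 36.6 CPM per kb. Without Htr2a and Htr2c, the other 8 genes summed to 26.8 CPM per kb ± 2.15 and 24.9 CPM per kb ± 1.64 (SD, n = 4 each). These sums were formed after the values had been seen and carry no test.

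**Figure D2:**
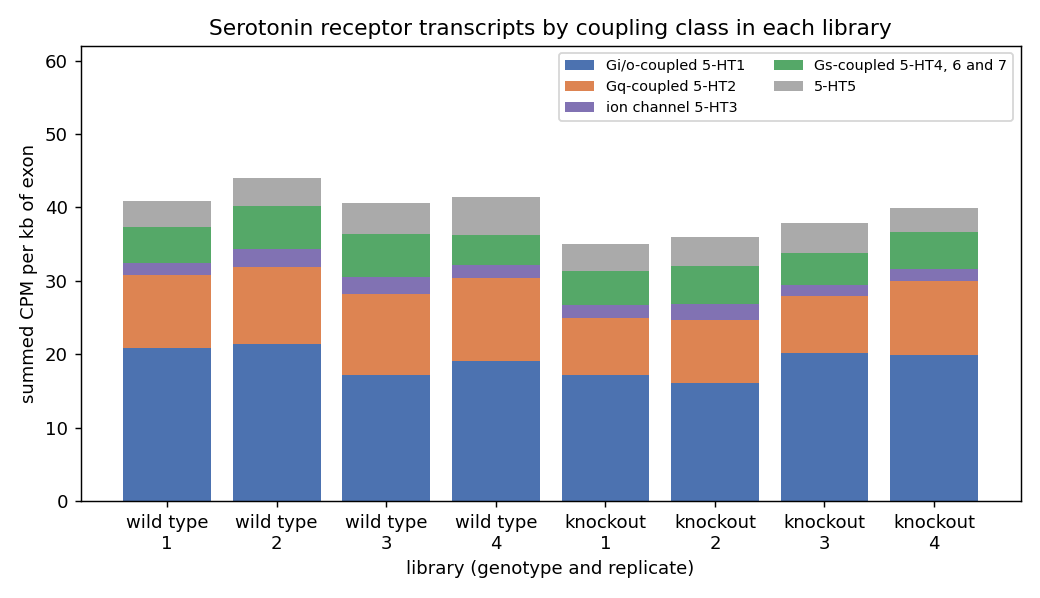
Stacked bars of CPM per kb of exon summed over the receptors of each coupling class, for the 4 wild-type and 4 knockout libraries. The totals reach 40.6 to 44.0 in wild type and 35.0 to 39.9 in the knockout. With exon length, the 5-HT1 class is the largest block in each bar.

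Between the genotypes, 0 of the 10 receptor genes passed an adjusted p of 0.05 by the edgeR quasi-likelihood method with Benjamini-Hochberg adjustment over 16511 genes, where the share called over all genes was 0.00606%, a single gene, Dclk3. DESeq2's Wald test called 0 of the 10 and 0.0102% of 29371 genes, and limma-voom 0 of the 10 and 0.00606% of 16511. DESeq2 was run without the filter on low counts, so its shares are not over the same genes. An unadjusted p under 0.05 was reached by 2 of the 10, Htr2a and Htr2c, against 3.76% of all genes in edgeR, 2.21% in DESeq2 and 4.26% in limma-voom. Both were lower in the knockout, a direction in which 1.79% of all genes had such a p in edgeR. Which receptors reached it varied with the libraries. Without knockout replicate 1 there were 0, without wild-type replicate 2 only Htr2c, without wild-type replicate 3 or knockout replicate 2 only Htr2a. Without wild-type replicate 4 it was Htr2a and Htr6, and without knockout replicate 3 Htr1f and Htr2a.

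The direction of the fitted differences was mostly negative. The log2 fold change of knockout over wild type was below 0 for 8 of the 10, against 50.5% of all genes, with a median of -0.20 against -0.0011 over all genes. Leaving out replicate 4 of both genotypes, a choice made with the values in view, put 9 of the 10 below 0 with a median of -0.26. Groups that did not overlap were found for 0 of the 10, against 1.92% of all genes (0.854% lower and 1.07% higher in the knockout). Since the 10 genes were measured in the same libraries, these counts describe the list and carry no test.

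**Figure D3:**
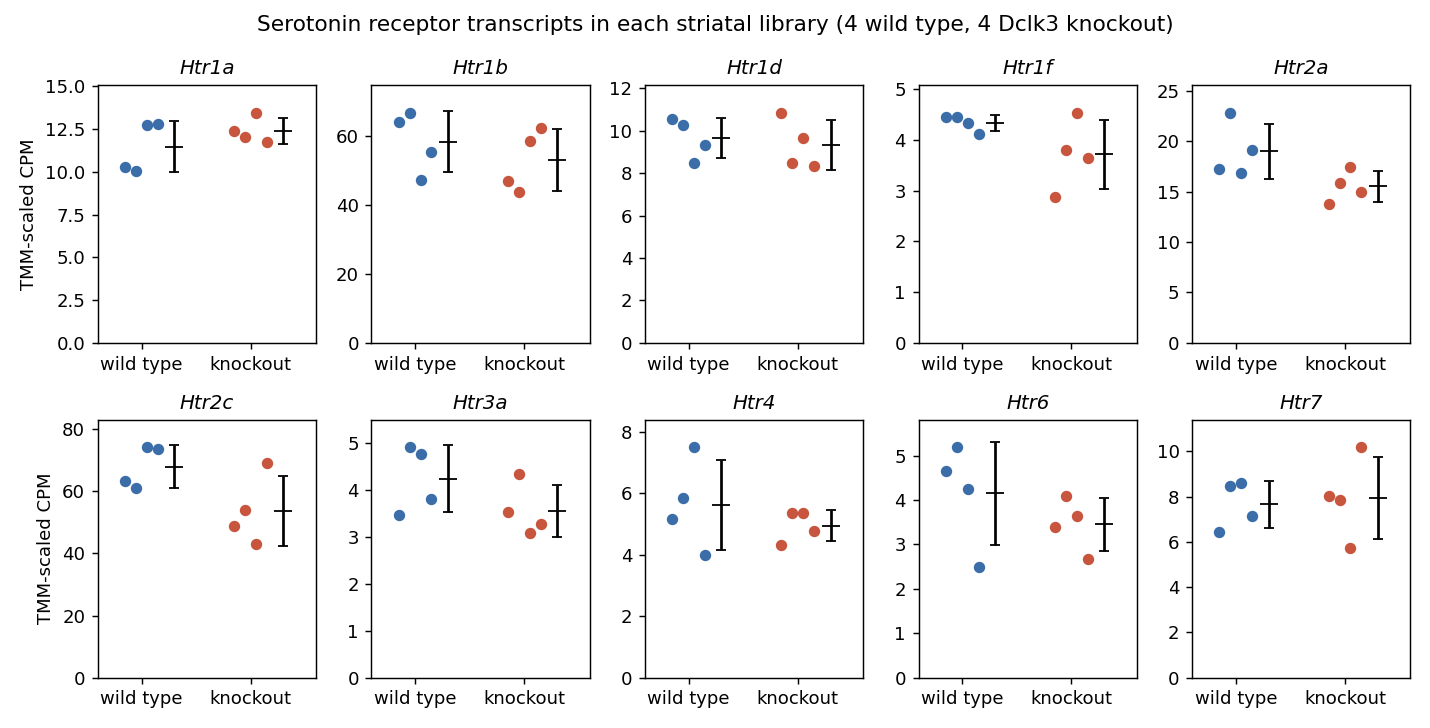
TMM-scaled CPM of the 10 serotonin receptor genes in each of the 4 wild-type (blue) and 4 knockout (red) libraries, with the mean and SD of each group in black; every axis starts at 0. The genotypes overlap in all 10 panels, with 3 of 4 knockout libraries below all wild-type libraries for Htr1f, Htr2a and Htr2c.

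The Gq-coupled pair, Htr2c and Htr2a, had the lowest fold changes of the 10. Htr2c (ENSMUSG00000041380) encodes the 5-HT2C receptor of spiny neurons, which the choroid plexus also makes at very high levels. It lies on the plus strand of chromosome X, 146962513 to 147197277 in GRCm38 (mm10). Htr2a (ENSMUSG00000034997) encodes 5-HT2A, the main excitatory serotonin receptor of cortical neurons and the target of classical psychedelics, and is a plus-strand gene of chromosome 14, 74640840 to 74709494. The Htr2c message is edited by ADAR enzymes, which turn adenosines into inosines within the codons in capitals here, and the matching codons of Htr2a, which is not known for such editing, are set beside them to show what a count per gene does not resolve. Both stretches are GRCm38 coding sequence from GENCODE transcripts, plus strand, 5′ to 3′:
Htr2c (chrX:147169665-147169721): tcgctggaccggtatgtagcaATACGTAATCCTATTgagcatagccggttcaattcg
Htr2a (chr14:74645083-74645139): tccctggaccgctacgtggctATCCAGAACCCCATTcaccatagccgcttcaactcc
The capitals are codons 157 to 161 of Htr2c, in exon 5 of 6, and 177 to 181 of Htr2a, in exon 2 of 3. The stretches share 42 of 57 bases and 10 of the 15 in capitals. Of the 4 annotated coding transcripts of Htr2c, 2 hold the whole stretch, and the other 2 end the exon at position 147169675, 95 bases before the later splice donor, and so leave the edited codons out. The deposited counts are sums over the gene, so edited, unedited and shortened Htr2c messages were not told apart.

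In wild-type mice 1 to 4, Htr2c stood at 63.4, 61.0, 74.2 and 73.5 CPM, and in knockout mice 1 to 4 at 48.8, 54.0, 42.9 and 69.0 CPM. Knockout replicates 1 to 3 lay below all wild-type libraries, and knockout replicate 4 lay inside the wild-type range. The means were 68.0 CPM ± 6.81 and 53.7 CPM ± 11.2 (SD, n = 4 each). Htr2c thus had a log2 fold change of -0.34 (SE 0.14, 95% interval -0.65 to -0.04). Its unadjusted p was 0.0316 and its adjusted p 0.999 in edgeR, so Htr2c did not pass.

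Since the choroid plexus is known to make Htr2c, its markers were set beside the receptor. Wild-type replicate 4 had 2715 CPM of the choroid plexus gene Ttr, against 23.7 to 207 CPM elsewhere, and its Htr2c level was slightly under that of wild-type replicate 3, the library with the least Ttr. Knockout replicate 1 was next for Ttr at 207 CPM, with 23.7 to 68.4 CPM in the remaining libraries. Its Htr2c level of 48.8 CPM lay below all wild-type libraries. Without wild-type replicate 4 the Htr2c log2 fold change was -0.30, with an unadjusted p of 0.0802 in edgeR. With the choroid plexus score of each library as a covariate it was -0.32, with an unadjusted p of 0.0576 in edgeR. Without knockout replicate 4 it was -0.49, with an unadjusted p of 0.000266 and an adjusted p of 0.9998 in edgeR. Leaving out both gave -0.45 with an adjusted p of 0.178 in edgeR, the lowest of all 18 alternatives. Without knockout replicate 3 the Htr2c value was -0.25, with an unadjusted p of 0.0687 in edgeR. The part of choroid plexus in the Htr2c level was not tested beyond these fits. In bulk tissue such as this, fewer cells that make a transcript and less of it per cell cannot be told apart.

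Htr2a stood at 17.2, 22.8, 16.9 and 19.1 CPM in wild-type mice 1 to 4, and at 13.8, 15.9, 17.4 and 14.95 CPM in knockout mice 1 to 4. Knockout replicates 1, 2 and 4 lay below all wild-type libraries, and knockout replicate 3 lay above wild-type replicates 1 and 3. The means were 19.0 CPM ± 2.73 and 15.5 CPM ± 1.53 (SD, n = 4 each). This was a log2 fold change of -0.29 (SE 0.11, 95% interval -0.52 to -0.06), with an unadjusted p of 0.0175 and an adjusted p of 0.999 in edgeR. By p it ranked 163 of 16511 genes, and Htr2c ranked 350.

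Cortical markers ran with Htr2a in some libraries and not in others. Wild-type replicate 2 was highest of the 8 for Htr2a and for the cortical sum, with 1599 CPM over the 10 markers. Of that sum, 1158 CPM came from the marker Slc17a7 alone. The libraries lowest for Htr2a, knockout replicates 1 and 4, were also lowest for the cortical sum at 1011 and 825 CPM. Knockout replicate 2 went the other way, with a cortical sum of 1354 CPM, above the 1091 and 1303 CPM of wild-type replicates 1 and 3, and an Htr2a level below both. The cortical score, which weighs the markers equally, gave another order. By it wild-type replicate 4 (0.30) and knockout replicate 2 (0.23) lay above wild-type replicate 2 (0.14). Wild-type replicate 1 (-0.17) lay below knockout replicate 1 (-0.13). Of the 10 markers 9 had a log2 fold change below 0, with a list median of -0.17, and 0 passed. With the cortical score as a covariate the log2 fold change of Htr2a was -0.24 and that of Htr2c -0.43. Without wild-type replicate 2 the Htr2a value was -0.19, the nearest to 0 of its 18 alternatives. The part of cortical tissue in the Htr2a level was not tested beyond these fits.

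**Figure D4:**
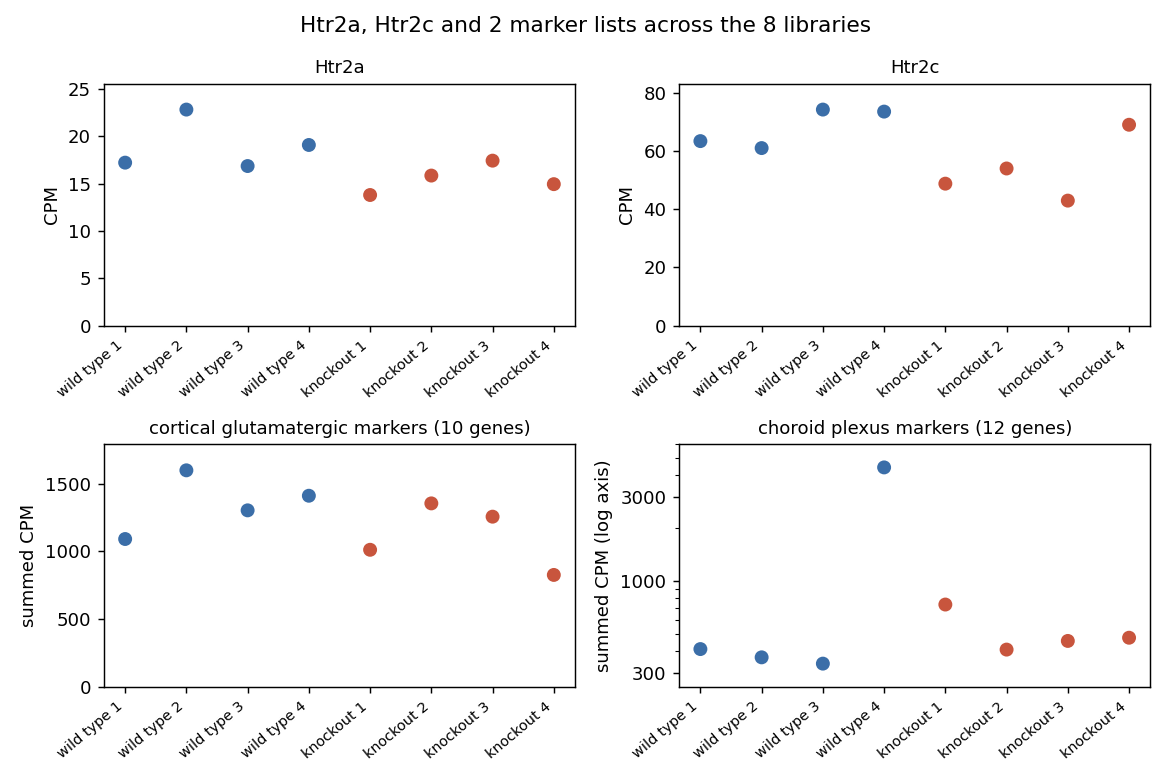
Levels of Htr2a and Htr2c in CPM, and summed CPM of 10 cortical glutamatergic and 12 choroid plexus markers (the latter on a log axis), in each of the 4 wild-type (blue) and 4 knockout (red) libraries. Wild-type replicate 4 stands apart for choroid plexus at 4435 CPM. Htr2c is at 73.5 CPM in wild-type replicate 4 and 74.2 CPM in wild-type replicate 3, and Htr2a and the cortical sum are both highest in wild-type replicate 2.

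The Gi/o-coupled receptors were led by Htr1b (ENSMUSG00000049511), whose product limits transmitter release from axon terminals. The gene lies on the minus strand of chromosome 9, 81628291 to 81633828. Htr1b stood at 64.1, 66.9, 47.4 and 55.5 CPM in wild-type mice 1 to 4 and at 47.1, 43.9, 58.7 and 62.5 CPM in knockout mice 1 to 4. Each genotype held a higher and a lower pair of libraries, and the ranges overlapped over most of their length. The fitted difference was -0.14 on the log2 scale (SE 0.14, 95% interval -0.45 to 0.17), with an adjusted p of 0.999 in edgeR. Exons of the antisense gene D430036J16Rik overlap those of Htr1b over 852 bases, with the strand setting of the counts not given in the sources used here. That gene had 7.39 CPM ± 0.890 in WT and 7.82 CPM ± 1.19 in knockout animals (SD, n = 4 each).

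Htr1d encodes 5-HT1D, the closest relative of 5-HT1B, and is a plus-strand gene of chromosome 4, 136423524 to 136444398. Its level was 10.6, 10.3, 8.48 and 9.31 CPM in wild-type mice 1 to 4 and 10.9, 8.50, 9.68 and 8.32 CPM in knockout mice 1 to 4. It had the narrowest span of the 10, with the highest library 1.31 times the lowest, and a log2 fold change of -0.05 (SE 0.11, 95% interval -0.29 to 0.19). Per kilobase of exon, Htr1b exceeded Htr1d by 2.94 to 5.09 times in the 8 libraries, with a mean ratio of 4.09 ± 0.258 in WT and 3.91 ± 0.922 in knockout animals (SD, n = 4 each). Both ends of that range were knockout libraries, replicate 1 and replicate 4.

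Htr1a encodes 5-HT1A, which opens potassium channels in many forebrain neurons and restrains serotonin neurons. It is a single-exon gene on the plus strand of chromosome 13, 105443639 to 105448122. Htr1a stood at 10.3, 10.1, 12.7 and 12.8 CPM in wild-type mice 1 to 4 and at 12.4, 12.0, 13.5 and 11.7 CPM in knockout mice 1 to 4. Wild-type replicates 1 and 2 were lower than the other 6 libraries, which lay between 11.7 and 13.5 CPM. With a log2 fold change of 0.11 (SE 0.10, 95% interval -0.10 to 0.33), Htr1a was 1 of 2 receptors above 0.

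Htr1f encodes 5-HT1F, a receptor targeted by migraine drugs, and lies on the minus strand of chromosome 16, 64924729 to 65105854. Wild-type mice 1 to 4 had 4.45, 4.46, 4.33 and 4.11 CPM, and knockout mice 1 to 4 had 2.87, 3.80, 4.54 and 3.65 CPM. Wild-type libraries lay close together, with a coefficient of variation of 3.77%, against 18.4% in the knockout. Knockout replicates 1, 2 and 4 lay below all wild-type libraries, and knockout replicate 3 lay above them. On the log2 scale Htr1f differed by -0.22 (SE 0.15, 95% interval -0.54 to 0.10). Without knockout replicate 1 it was -0.11, and without knockout replicate 3 it was -0.33 with an unadjusted p of 0.0461 and an adjusted p of 0.999 in edgeR.

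**Figure D5:**
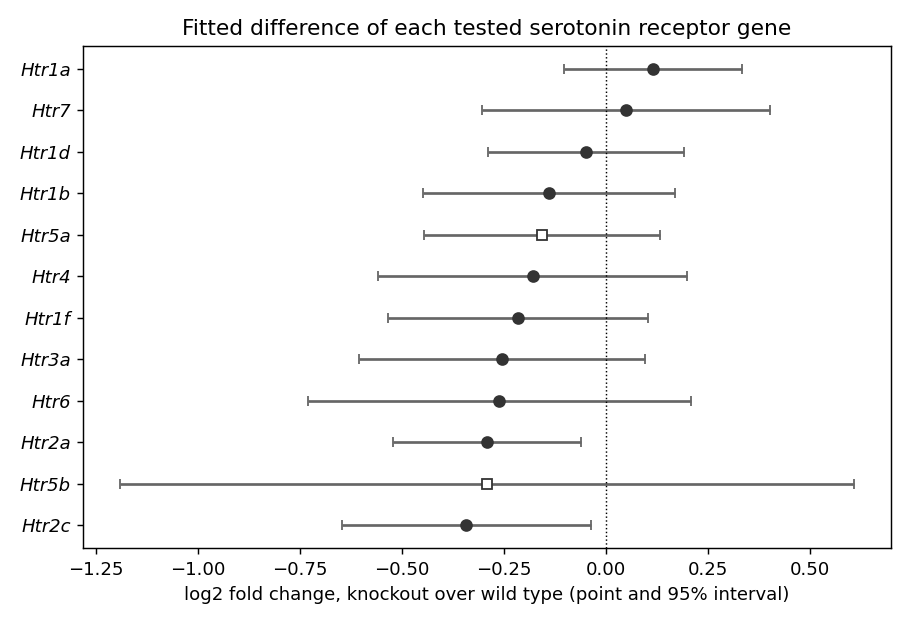
Log2 fold change of knockout over wild type with its 95% interval for the 12 serotonin receptor genes tested, filled circles for the 10 followed here and open squares for Htr5a and Htr5b. The intervals of Htr2a and Htr2c lie below 0 before any adjustment for the 16511 genes tested, the other 10 include 0, and Htr5b has the widest interval.

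The Gs-coupled receptors were among the less abundant. Htr6 encodes 5-HT6, a receptor concentrated in the striatum and found on neuronal cilia, and lies on the minus strand of chromosome 4, 139061108 to 139075570. Htr6 stood at 4.65, 5.19, 4.26 and 2.49 CPM in wild-type mice 1 to 4 and at 3.40, 4.09, 3.65 and 2.66 CPM in knockout mice 1 to 4. Replicate 4 was lowest in both genotypes, and the highest library was 2.08 times the lowest, the widest span of the 10. The fitted log2 difference was -0.26 (SE 0.22, 95% interval -0.73 to 0.21). It was -0.45 without wild-type replicate 4, with an adjusted p of 0.616 in edgeR, -0.13 without wild-type replicate 2, and, leaving out knockout replicate 4 instead, -0.16.

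Htr4 encodes 5-HT4, whose striatal transcripts are known from spiny neurons. Htr4 stood at 5.16, 5.83, 7.50 and 3.999 CPM in wild-type mice 1 to 4 and at 4.30, 5.35, 5.34 and 4.78 CPM in knockout mice 1 to 4. Wild-type libraries held both the highest and the lowest value, and all knockout libraries lay between them. The log2 fold change of -0.18 (SE 0.17, 95% interval -0.56 to 0.20) became -0.01 when wild-type replicate 3 was left out and -0.31 when replicate 4 of that genotype was.

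Htr7 encodes 5-HT7, best known from the thalamus, hypothalamus and hippocampus, and lies on the minus strand of chromosome 19, 35958734 to 36057507. Its level was 6.42, 8.47, 8.59 and 7.15 CPM in wild-type mice 1 to 4 and 8.03, 7.86, 5.72 and 10.2 CPM in knockout mice 1 to 4. The highest library, knockout replicate 4, was also highest for thalamic markers. The lowest, knockout replicate 3, had the lowest thalamic sum at 202 CPM, although by marker score wild-type replicate 4 was lower (-0.80 against -0.62). Wild-type replicates 1 and 3 went the other way, with 6.42 and 8.59 CPM of Htr7 and thalamic sums of 249 and 206 CPM. Thalamic markers all had a log2 fold change above 0, 10 of 10 with a median of 0.47, and 0 passed. Htr7 had 0.05 (SE 0.16, 95% interval -0.30 to 0.40), and without knockout replicate 4 it had -0.09. The part of thalamic tissue in the Htr7 level was not tested.

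Htr3a encodes the subunit that 5-HT3 channels need, marks a class of forebrain interneurons and lies on the minus strand of chromosome 9, 48899213 to 48911099. Htr3a stood at 3.47, 4.91, 4.77 and 3.81 CPM in wild-type mice 1 to 4 and at 3.52, 4.34, 3.07 and 3.28 CPM in knockout mice 1 to 4. The highest pair of libraries was wild type, the lowest pair, at 3.07 and 3.28 CPM, was knockout, and those between were mixed. On the log2 scale Htr3a differed by -0.26 (SE 0.16, 95% interval -0.61 to 0.10). The 12 interneuron markers summed to 765 to 922 CPM in wild-type and 776 to 901 CPM in knockout libraries. Of these sums, the marker Cnr1 alone gave 291 to 346 CPM in wild-type and 266 to 370 CPM in knockout libraries. The part of interneurons in the Htr3a level was not tested.

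The intervals show how precisely each receptor was compared. For 7 of the 10 the whole 95% interval was less than 1.5-fold either way, against 77.8% of all genes tested. The exceptions were Htr2c, Htr3a and Htr6, whose lower bounds were -0.65, -0.61 and -0.73 on the log2 scale. Variation between animals, as the edgeR fit estimates it per gene, ran from a coefficient of 10.5% for Htr1a and 10.99% for Htr2a to 17.7% for Htr4 and 21.4% for Htr6. The common value over all genes was 11.1%, and each of the 10 except Htr1a and Htr2a lay above it. The lowest count of any of the 10 in a library was 70, for Htr1f in knockout replicate 1.

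Genes that make, carry and break down serotonin gave no call. Of 11 tested 0 passed the adjusted threshold, 8 lay above 0 and 3 below, with a median log2 fold change of 0.10. Aldh1a1, an aldehyde dehydrogenase, had the smallest p. It stood at 56.4, 49.2, 56.2 and 60.8 CPM in wild-type mice 1 to 4 and at 76.7, 59.1, 69.5 and 74.0 CPM in knockout mice 1 to 4. Knockout replicates 1, 3 and 4 lay above all wild-type libraries and knockout replicate 2 lay inside their range. The log2 fold change of Aldh1a1 was 0.33 (SE 0.09), with an unadjusted p of 0.00256 and an adjusted p of 0.999 in edgeR. Slc29a4, a low-affinity monoamine transporter, ranged from 7.09 to 16.2 CPM in wild type and from 4.57 to 11.6 CPM in the knockout, with a fitted log2 value of -0.72 (SE 0.39). Maob, which breaks down monoamines, had 0.13 (SE 0.08), and Tph1, the enzyme of serotonin synthesis outside the brain, had -0.58 (SE 0.34) at 0.292 to 1.02 CPM.

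Partner proteins and effectors of the receptors gave no call either. Of 14 partners and editing enzymes 0 passed, 10 lay above 0 and 4 below, and their log2 fold changes had a median of 0.04, all between -0.03 and 0.18. Mpdz, a scaffold that binds the 5-HT2C tail, had 0.11 (SE 0.07), and S100a10, or p11, an adaptor of 5-HT1B, had 0.10 (SE 0.08). The arrestin gene Arrb2 had 0.11 (SE 0.07), and the kinase gene Fyn, whose product binds 5-HT6, had 0.06 (SE 0.05). The editing enzyme gene Adar had 201 CPM ± 5.64 in WT and 198 CPM ± 10.9 in knockout animals, and Adarb1 278 CPM ± 32.4 and 306 CPM ± 64.7 (SD, n = 4 each). Exons of Adar overlap those of Chrnb2 on the opposite strand. Of 22 genes for G proteins and effectors 0 passed, 14 lay above 0 and 8 below, with a median of 0.01 and a span of -0.22 to 0.53. Plcb4, a phospholipase C that Gq activates, had 0.30 (SE 0.14) and was highest in knockout replicate 4 at 86.1 CPM, the library also highest for thalamic markers. Gnaz had -0.12 (SE 0.06), Gna12 0.10 (SE 0.06) and the sparsely detected Gna14 0.53 (SE 0.32).

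Glial and vascular markers were tallied beside the receptors. Log2 fold changes were above 0 for 8 of 8 oligodendrocyte markers (median 0.19), 7 of 8 astrocyte markers (median 0.15), 8 of 8 microglia markers (median 0.09) and 6 of 7 endothelial markers (median 0.26), and 0 passed. An unadjusted p under 0.05 was reached by 4 of 8 astrocyte, 2 of 8 oligodendrocyte, 1 of 7 endothelial and 0 of 8 microglia markers, against 3.76% of all genes. Of the 6 ependymal markers tested, 6 lay below 0 (median -0.25), 1 with an unadjusted p under 0.05, and 0 passed. The medium spiny neuron markers had a median of 0.03, with 8 of 10 above 0. The part of these cells in the receptor levels was not tested.

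For the 3 receptors that varied most over the 8 libraries, the most similar profiles were sought among 14425 genes by Pearson's r of log2 CPM, as a description with no p. Htr6 was most like Pgls (r = 0.959), Relb (0.954) and Tmem198b (0.950). Htr2c was most like Ppp1r36 (0.959), Spsb2 (0.942) and Igfbp3 (0.925). Htr4 was most like Fbxw9 (0.983), Rab26 (0.960) and Zfhx2os (0.949). The values are the largest of 14425 over only 8 libraries, where selection alone can give a high r, so they show no link between genes. All these profiles come from the same 8 libraries and share their depth and tissue makeup. None of the other receptors was among these genes.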

How the data were processed

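Poly(A) RNA from 1 striatum per mouse was sequenced in 8 libraries with a stranded kit, per the labels' protocols. The authors deposited raw read counts per Ensembl gene. The submitters' processing notes name bcl2fastq 2.17.1.14 and the build mm10, with aligner, counting tool and strand setting not given in the sources used here. Of the gene identifiers, 31292 matched GENCODE (GRCm38) symbols and 125 did not.

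The counts were fitted with edgeR 4.0.16 (R 4.3.3). Of 31417 genes, 16511 passed filterByExpr (minimum count 10), all 10 receptors included. The robust quasi-likelihood fit used all 8 libraries, TMM scaling and genotype as the single term, with two-sided tests and Benjamini-Hochberg adjustment over all genes tested. A log2 fold change is knockout relative to WT, and its SE and 95% interval derive from the quasi-likelihood statistic. Lengths are unions of annotated exons. Marker scores are mean centred log2 CPM (prior count 2). No library was a copy of another of its genotype, since the chi-square per degree of freedom between pairs of 1 genotype was 6.60 to 29.6. Pairs across genotypes were not compared in this way. DESeq2 1.42.0 and limma 3.58.1 served as alternatives. The receptors and gene lists were chosen with earlier results of these data known. By rule the text names all 14 receptors, Dclk3, the 4 genes with the smallest p in each pathway list and the 3 genes most like each of the 3 most variable receptors. Tph2, Slc6a4, Fev, Slc18a2, Adar, Adarb1, Ttr, Enpp2, Slc17a7, Cnr1, D430036J16Rik and Chrnb2 were named outside that rule, with their values seen. So were the genes that single alternatives called (Malat1, 1520401A03Rik, Gpr101 and Gm26917).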

Additional observations from a re-analysis of the deposited data

Results flagged for a closer look

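Of 66 groups of 4 libraries checked, 3 held a library far from the others of its genotype, where chance flags about 1 in 20. The choroid plexus marker sum was 4435 CPM in wild-type replicate 4 against 338 to 409 CPM in the other wild-type libraries. The summed level of receptor partners and editing enzymes was 2776 CPM in wild-type replicate 1 against 2669 to 2682 CPM in the others. Htr3b stood at 0.0729 CPM in knockout replicate 4, which is 2 counts and under the limit of 3, against 0 in the other knockout libraries. None of the 10 receptors met this criterion in either genotype.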

How the results depend on the processing

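Across all 18 alternatives, 0 of the 10 receptors passed the adjusted threshold, 0 to 2 had an unadjusted p under 0.05 and 8 or 9 had a log2 fold change below 0. Over all genes, 1 gene was called in 15 of the 18, although with no filter on low counts that gene was Malat1. There Dclk3 had a log2 fold change of -2.07 and an adjusted p of 0.0647 in edgeR. DESeq2's Wald test called 3 (Dclk3, Malat1 and 1520401A03Rik), and leaving out replicate 4 of both genotypes, added after seeing the data, called 3 (Dclk3, Gpr101 and Gm26917). Leaving out single libraries gave 1 to 2 genes, 2 without wild-type replicate 1, and -2.17 to -1.95 for Dclk3. The sign turned for 4 receptor genes under some alternatives. Htr7, at 0.049 with all libraries, had -0.052 with the cortical score as covariate, -0.13 without replicate 4 of both genotypes, -0.026 without wild-type replicate 1 and, leaving out knockout replicate 4 alone, -0.094. Htr1d, at -0.049, had 0.0014 without knockout replicate 4. Htr5b, at -0.29 with an SE of 0.41, had 0.022 without wild-type replicate 3, and Htr5a, at -0.16, had 0.061 without replicate 4 of both genotypes. The ranges without single libraries were -0.094 to 0.18 for Htr7, -0.13 to 0.0014 for Htr1d and -0.66 to 0.022 for Htr5b. The cause was not tested. In the order by level, 8 of 14 genes kept their place when coding length replaced exon length.

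The genotypes share replicate numbers, but same-numbered libraries did not deviate together (correlations of -0.276 to 0.0532, with 1 of 4 wild-type libraries most like its own number). With the replicate number as a block, 1 gene and 0 receptors were called. Depth limits Htr2b, Htr3b and Htr5b.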
